A study of Mus musculus with 54 samples.

Results

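The genes described here make, store, take up and break down dopamine. They are Th, Ddc, Gch1 and Qdpr for synthesis, Slc6a3 and Slc18a2 for transport, and Aldh1a1, Maoa and Maob for breakdown. They were chosen by name, and all 13 probe sets annotated to 1 of these 9 genes alone were used, of 45037 probe sets and 18193 genes on the array. RNA was measured on 54 Affymetrix mouse genome arrays from striatum, brainstem/midbrain and cerebellum of 2 transgenic lines, PrPmtA and PrPmtB, and of WT mice of their FVB/N background strain, at 6 months (young) and at 20 to 28 months (old). Both lines overexpress a mutant human protein from the prion promoter, which is active in many neurons and not in dopamine neurons alone. In brainstem/midbrain, each line had 2 young arrays, 1 labelled female and 1 labelled male. Old brainstem/midbrain had 6 WT arrays (22, 22, 22, 20, 28 and 26 months), 4 PrPmtA arrays (21, 21, 28 and 26 months) and 3 PrPmtB arrays (22, 22 and 20 months), numbered in that order. Old PrPmtB mice were therefore never older than 22 months.

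Dopamine is made from tyrosine. Tyrosine hydroxylase (Th) performs the rate-limiting step with tetrahydrobiopterin as its cofactor, and aromatic amino acid decarboxylase (Ddc) the next one. GTP cyclohydrolase (Gch1) starts the making of that cofactor, and dihydropteridine reductase (Qdpr) restores it after use. The vesicular monoamine transporter (Slc18a2) loads dopamine into vesicles and the dopamine transporter (Slc6a3) takes it back up from outside the cell. Monoamine oxidases (Maoa and Maob) and aldehyde dehydrogenases such as Aldh1a1 break it down. The dopamine cell bodies lie in the ventral midbrain and send their axons to the striatum, so most of this RNA is found in midbrain. Only Slc6a3 belongs to dopamine neurons alone: Ddc, Gch1 and Slc18a2 also serve serotonin and noradrenaline neurons, Th also serves noradrenaline neurons, and Maoa, Maob, Qdpr and Aldh1a1 are made in other cells as well.

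Values are signals on a log2 scale, so a difference of 1 is a 2-fold change. The array medians were 3.46 to 3.63 on the young and 3.38 to 3.48 on the old arrays. Line, region and age make 18 groups, whose means were fitted together for all probe sets in limma. Each difference comes with its standard error (SE) and an adjusted p from limma, corrected by Benjamini-Hochberg over the probe sets of 1 comparison. Calls were made by nestedF in limma's decideTests, which judges each probe set across several related comparisons at once, and the false discovery rate was set to 5%. A called change can thus have an adjusted p above 0.05, and the reverse. By their codes, the arrays form 3 series. The first holds every young array and no old one, so an effect of age and one of the series cannot be told apart. The arrays of 21 and 22 months were all labelled female and those of 20 months female and male together. Those of 26 months were labelled male and those of 28 months female. The methods count tissues per group, but the labels tie no array to a mouse and give both sexes for the 20-month arrays. Where arrays do not stand for separate mice, p-values measure only the spread between these samples, which may be technical. Where a gene has several probe sets, the brightest in brainstem/midbrain stands for it and the other is named as such.

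The old brainstem/midbrain arrays were of 2 kinds, which bears on every age comparison below. The mean signal of 4 hindbrain genes (Hoxb2, Hoxb3, Hoxb5 and the glycine transporter gene Slc6a5) was 4.98 to 6.19 on the 6 young arrays. It was 2.47 to 3.35 on the 9 arrays of 20 to 22 months and 6.44 to 7.07 on the 4 arrays of 26 and 28 months. Slc6a5 alone was 8.86 to 9.52, 2.41 to 5.65 and 8.67 to 9.13 in the same order, so the 20 to 22 month tissue gave little hindbrain signal. Whether the dissection differed is not given in the sources used here. Age changes are therefore also given for the 2 kinds of old arrays apart, in a division made after the data were seen. In the markers of dopamine neurons other than the members (11 genes, among them Nr4a2, Pitx3 and Chrna6), the mean signal was 3.83 to 4.07 on the young arrays, 4.12 to 5.42 at 20 to 22 months and 3.82 to 4.29 at 26 and 28 months. In bulk tissue, fewer cells of a type and less RNA per cell cannot be told apart.

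The genes of dopamine neurons stood far higher in brainstem/midbrain than in the other regions, and the breakdown genes less so. Averaged over lines and ages, 12 of the 13 probe sets were called higher than in striatum and 10 than in cerebellum, where 22.3% and 20.7% of all probe sets were called higher. Slc6a3 stood at least 7.07 above striatum and 7.12 above cerebellum. These are lower bounds, since its signals there, 2.4 to 2.71 and 2.4 to 2.57, lay below the median of every array and may not be above background. Slc18a2 stood 4.98 (SE 0.10) above striatum and 5.15 (SE 0.09) above cerebellum. Ddc stood 3.83 (SE 0.12) and 5.33 (SE 0.12) above them, and Th 3.63 (SE 0.22) and 2.80 (SE 0.21). Gch1 stood at least 2.22 and 2.28 above them, lower bounds for the same reason (2.81 to 3.09 in both regions). The labelled tissue thus carried the defining transcripts of midbrain dopamine neurons on all 19 arrays.

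The breakdown genes and Qdpr were more evenly spread. Aldh1a1 stood 3.54 (SE 0.07) above striatum but 0.17 (SE 0.07) above cerebellum, where it lay between 10.50 and 11.43. Maob stood 1.01 (SE 0.07) and 1.26 (SE 0.06) above striatum and cerebellum, and Qdpr 0.27 (SE 0.06) and 0.66 (SE 0.05). Maoa stood 0.46 (SE 0.06) above striatum, and its difference of 0.10 (SE 0.05) from cerebellum was not called. The exception among the 13 was the other Ddc probe set, at 1.80 to 1.93 over the regions. Only 1.0% of all probe sets were dimmer in brainstem/midbrain, so it gives no usable level.

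**Figure D1:**
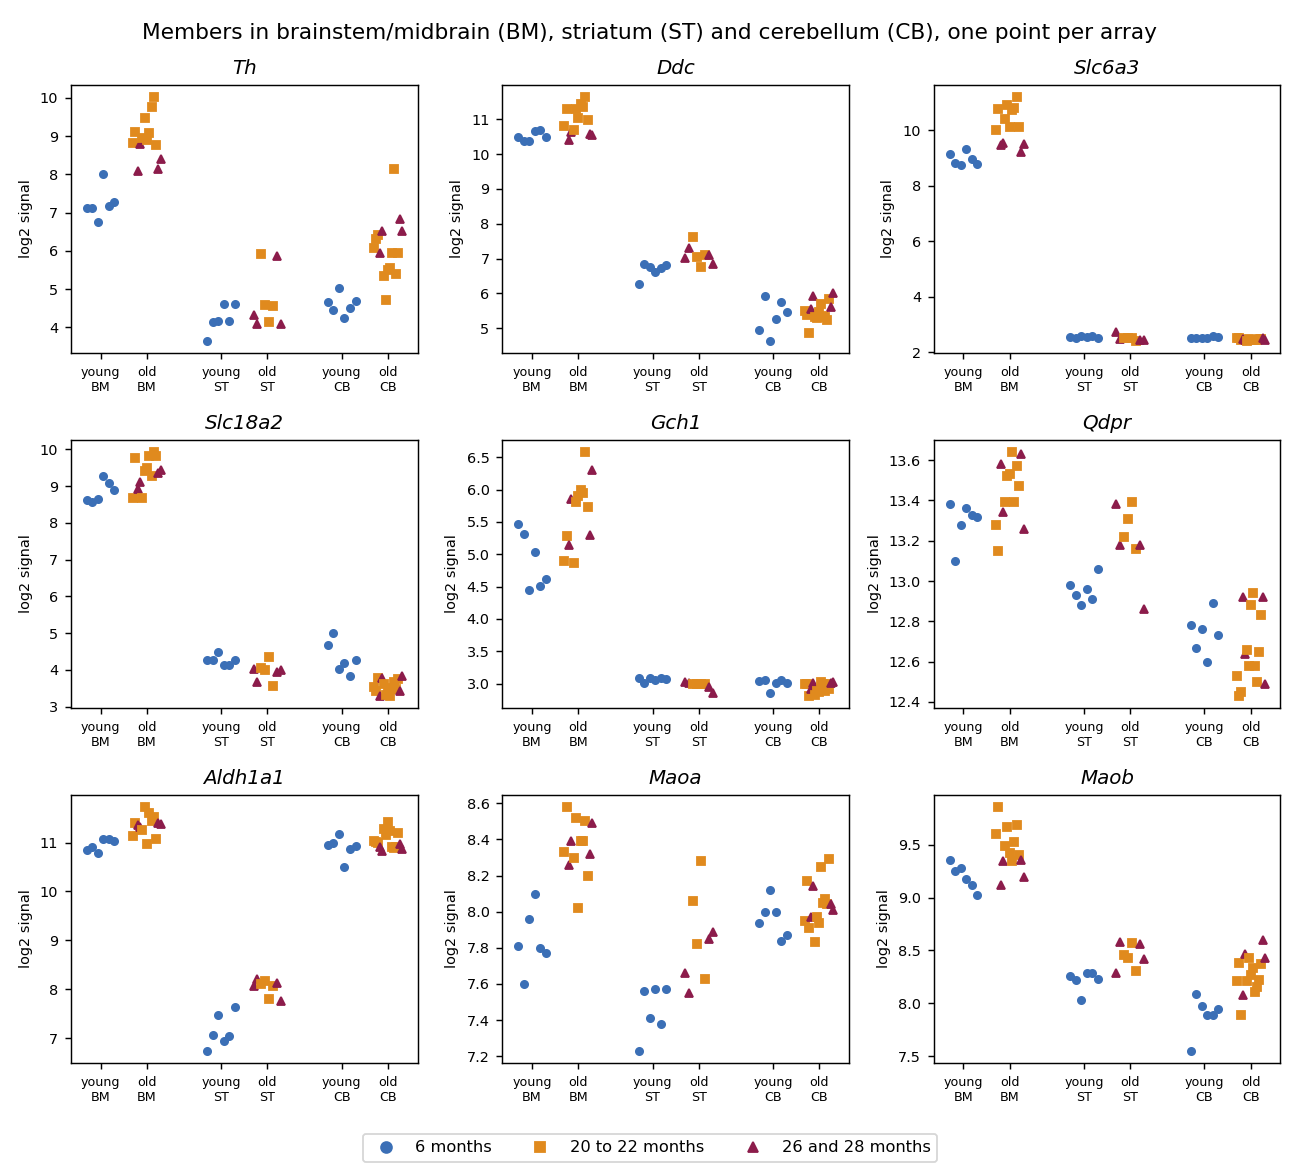
Log2 signal (vertical axis) of each gene on all 54 arrays by region (BM, brainstem/midbrain; ST, striatum; CB, cerebellum) and age, 1 point per array, with the 3 lines together and the age in months as colour and shape. Slc6a3, Slc18a2 and Ddc lay at or above 8.58 on every brainstem/midbrain array and at or below 7.61 on all others, whereas Aldh1a1 stood only 0.17 higher in brainstem/midbrain than in cerebellum.

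With age, Th and Slc6a3 rose in brainstem/midbrain of all 3 lines, and the other genes differed by line or probe set. With all old arrays together, Ddc was called in none on its brightest probe set. Of the 13 probe sets, 9 were called higher in old WT, 7 in old PrPmtA and 7 in old PrPmtB, where 10.6%, 10.2% and 8.25% of all probe sets were called higher. Counted by gene on the brightest probe sets, 7, 5 and 6 of 9 were called higher and none lower, and the median difference was 0.60, 0.42 and 0.39, against -0.06, 0.01 and -0.01 over all probe sets. The calls depended on the fit: a separate fit of brainstem/midbrain alone called 5, 3 and 2 of the 13 probe sets in either direction. Over all probe sets that fit called 5994, 5286 and 4209, beside 18841, 9163 and 7567 in the main fit, so fewer calls were not particular to the members. The calls in PrPmtB also depended on single arrays. Bright probe sets were called higher more often. Of the 11 member probe sets in the brighter part of the array, 8, 6 and 7 were called higher, beside 20.7%, 18.7% and 15.5% of all probe sets there. The only member probe set called lower was the dim one of Ddc in WT (-0.06). Old and young arrays did not overlap for 2 of the 13 probe sets, Th and the other Qdpr probe set. Among all probe sets, 3.87% had every old array above every young one.

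By the brightest probe sets, Th rose most in each of the 3 lines. The 6 young arrays read 7.18 and 7.28 (WT), 7.11 and 7.12 (PrPmtA) and 6.76 and 8.0 (PrPmtB). The old WT arrays ran from 8.14 through a median of 8.93 to 10.02, the PrPmtA arrays read 8.82, 9.12, 8.08 and 8.79, and the PrPmtB arrays 8.96, 9.48 and 8.90. Every old array was above every young array, although the 28-month PrPmtA array, at 8.08, was close to the brighter young PrPmtB array at 8.0. The difference was 1.80 (SE 0.49, adjusted p = 0.0078, 3.48-fold) in WT, 1.59 (SE 0.52, adjusted p = 0.0344) in PrPmtA and 1.73 (SE 0.55, adjusted p = 0.0429) in PrPmtB. Without the first young PrPmtB array, which left 1 young array assumed to vary as the other groups do, the PrPmtB difference was 1.11 and not called (adjusted p = 0.571).

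Slc6a3 rose as well. Young arrays read 8.98 and 8.80 (WT), 9.16 and 8.82 (PrPmtA) and 8.74 and 9.33 (PrPmtB). Among the WT arrays, those of 22 months read 10.73, 10.80 and 11.20, that of 20 months 10.12, that of 28 months 9.21 and that of 26 months 9.52. PrPmtA read 10.01 and 10.76 at 21 months, 9.47 at 28 and 9.56 at 26 months, and PrPmtB 10.40, 10.90 and 10.14. All 9 arrays of 20 to 22 months were above all young arrays, and the 4 oldest overlapped with the brightest young ones. All old arrays together stood higher by 1.37 (SE 0.29, adjusted p = 0.000733) in WT, 0.96 (SE 0.31, adjusted p = 0.03) in PrPmtA and 1.45 (SE 0.33, adjusted p = 0.003) in PrPmtB. In PrPmtA the call was lost without the 21-month array at 10.76 (0.69, adjusted p = 0.14) and without the second young array (0.79, adjusted p = 0.278).

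The probe sets of Gch1 moved with age by different amounts in the lines. On the brightest, young WT arrays read 4.51 and 4.62 and young PrPmtB arrays 4.44 and 5.03, while young PrPmtA arrays were higher at 5.46 and 5.32. Old WT ran from 5.30 through a median of 5.97 to 6.58, old PrPmtA read 4.90, 5.28, 5.14 and 5.85, and old PrPmtB 4.86, 5.81 and 5.90. The age difference was 1.41 (SE 0.21, adjusted p = 6.15e-06) in WT, 0.79 (SE 0.23, adjusted p = 0.0285) in PrPmtB and -0.10 (SE 0.22, adjusted p = 0.961) in PrPmtA. The other, dimmer probe set gave 1.51 (SE 0.39), 0.70 (SE 0.43) and 1.77 (SE 0.41) in the order WT, PrPmtB and PrPmtA and was called in WT and PrPmtA, so the 2 probe sets disagreed in PrPmtA. The name of the brightest one ends in s_at, which marks probes that can match more than 1 transcript.

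Ddc and Slc18a2, shared with the other monoamine neurons, moved less. With all old arrays together, Ddc was not called in any line, at 0.51 (SE 0.27), 0.37 (SE 0.29) and 0.50 (SE 0.30) in WT, PrPmtA and PrPmtB. The 2 kinds of old arrays differed in it. Ddc read 10.70 to 11.64 at 20 to 22 months and 10.42 to 10.65 at 26 and 28 months, beside 10.37 to 10.70 on the young arrays. Over the alternative fits, its WT difference ran from -0.01 to 0.89. Slc18a2 was called higher in WT (0.61, SE 0.22, adjusted p = 0.0312) and PrPmtA (0.52, SE 0.23, adjusted p = 0.157) and not in PrPmtB (0.24, SE 0.24). Its lowest old arrays were the first PrPmtB (8.68), the first PrPmtA (8.69) and the 28-month PrPmtA array (8.93). The first 2 of these also had the lowest signals of the serotonin transporter Slc6a4 (2.81 and 2.26, against 4.24 to 8.38 on the other old arrays) and of Tph2, which makes serotonin (3.21 and 3.11, against 5.62 to 10.45). The second WT array came next in both (4.24 and 5.62), with Slc18a2 at 9.29, the lowest of the WT arrays. The part of serotonin cells in the Slc18a2 values was not tested.

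The breakdown genes rose by less than 2-fold. Maoa was called higher by 0.60 (SE 0.12, adjusted p = 0.000467) in WT and 0.68 (SE 0.13, adjusted p = 0.000228) in PrPmtA. In PrPmtB it was called at 0.26 (SE 0.14, adjusted p = 0.327), but with only the 1 old array of the third series it was -0.003, and the separate method did not call it. Its young arrays lay between 7.60 and 8.10 and its old arrays between 8.02 and 8.58, with overlap only between PrPmtB arrays. The other Maoa probe set gave 0.60 (SE 0.35), 0.73 (SE 0.37) and 0.23 (SE 0.39), none of them called. Aldh1a1 was called higher in the 3 lines, by 0.35, 0.42 and 0.39, with adjusted p-values of 0.0888, 0.0967 and 0.217. Maob was called higher by 0.35 (SE 0.15) in WT and by 0.30 (SE 0.16) in PrPmtB, while PrPmtA, at 0.18 (SE 0.16), was not called. Qdpr on its brightest probe set differed by 0.17, 0.10 and 0.16 and was not called. That probe set ends in x_at, which marks probes that can cross-hybridize. The other Qdpr probe set was called higher, by 0.40 (SE 0.16), 0.77 (SE 0.17) and 0.35 (SE 0.17), and read 11.08 to 11.56 on the young and 11.61 to 12.18 on the old arrays.

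**Figure D2:**
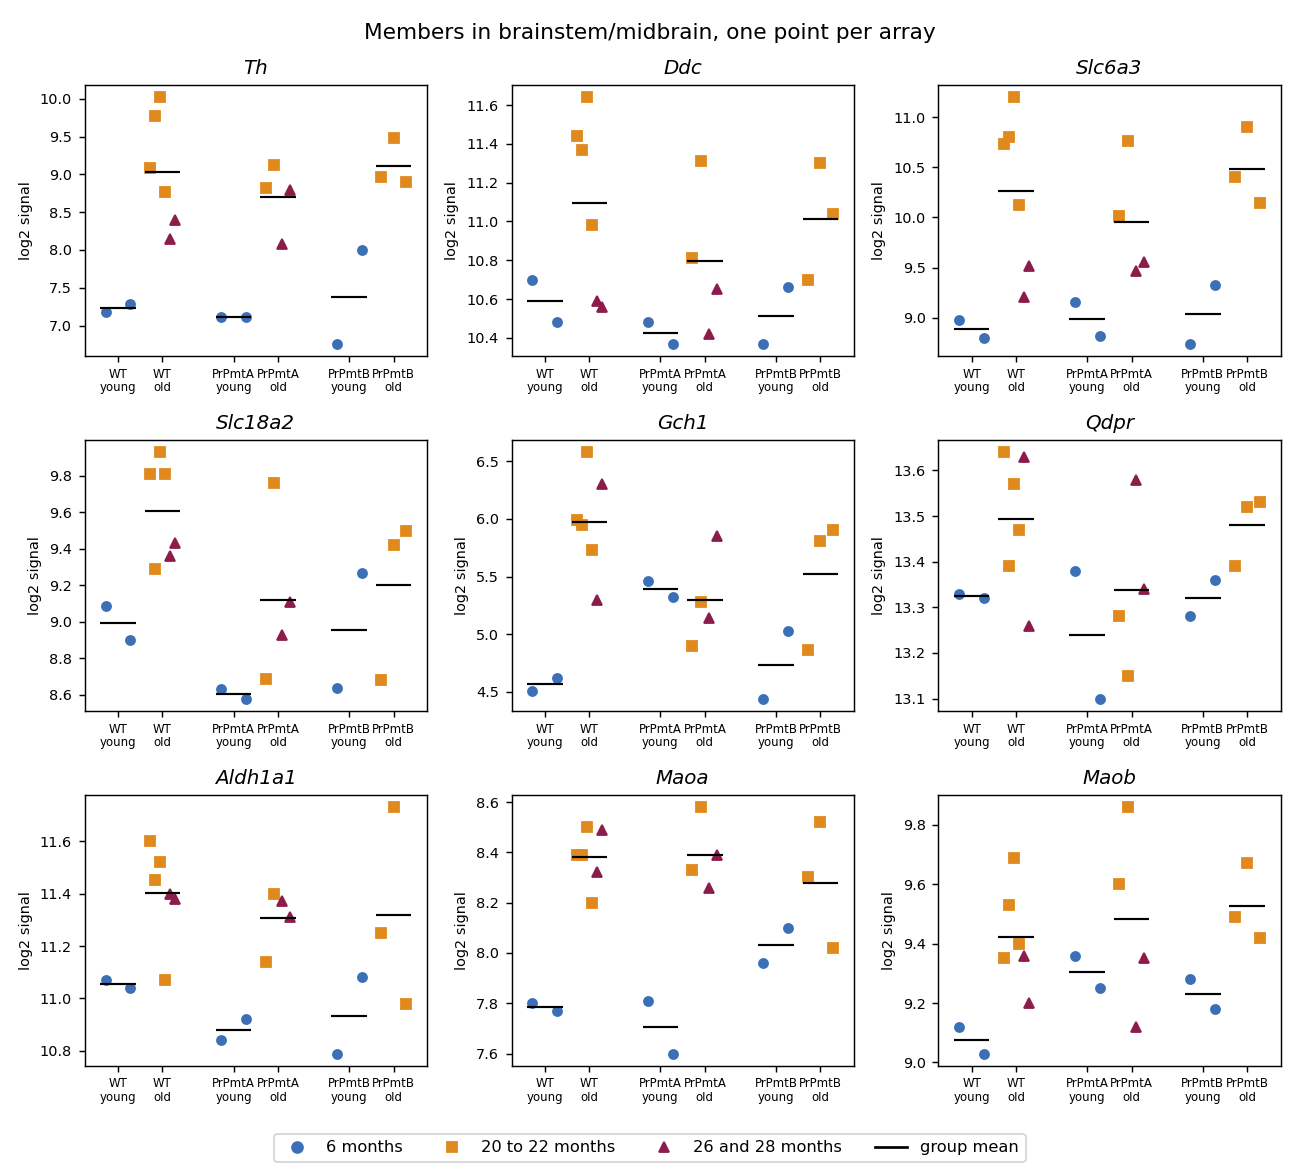
Log2 signal (vertical axis) of each gene's brightest probe set on the 19 brainstem/midbrain arrays by line and age, 1 point per array with the age in months as colour and shape, and bars for the group means. For Slc6a3 the 26 and 28 month arrays (9.21 to 9.56) overlapped with the young (8.74 to 9.33) and lay below the 20 to 22 month arrays (10.01 to 11.20), whereas for Maoa the 2 kinds of old arrays were interspersed.

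**Figure D3:**
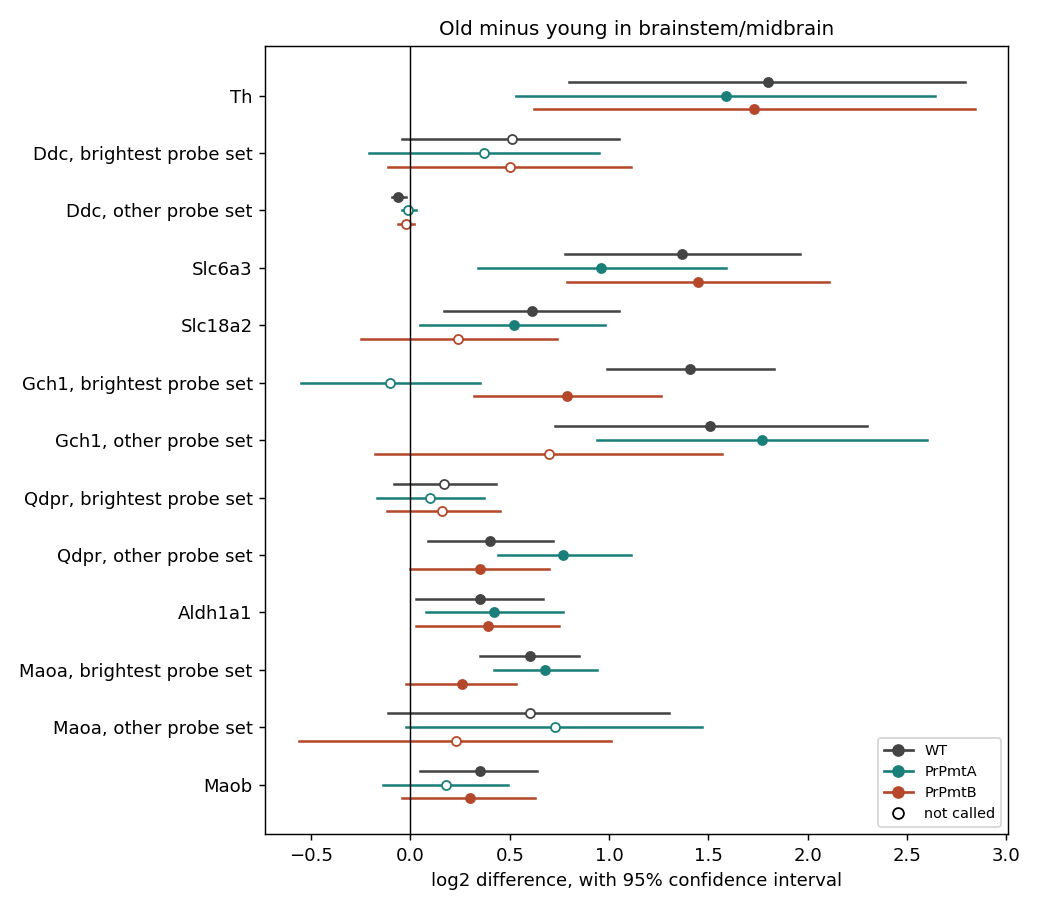
Old minus young log2 difference in brainstem/midbrain (horizontal axis) with its 95% confidence interval for the 13 probe sets in WT, PrPmtA and PrPmtB, filled where called. Th and Slc6a3 lay well above 0 in the 3 lines, and the brightest Gch1 probe set in PrPmtA (-0.10) stood apart from WT (1.41).

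The promoters of 4 of these genes are shown as examples. The signals of Th, Slc6a3 and Gch1 rose with age in 2 or 3 lines. That of Ddc varied together with Slc6a3 among the old arrays (below). These features do not set the 4 genes apart from the other members. Aldh1a1 and Maoa were also called higher in 3 lines and varied together with Slc6a3 by Pearson's r among those arrays. Slc18a2 and Maob were called higher in 2 lines. RefSeq (GRCm38.p6) windows of 250 bases before to 50 after a gene's start were at hand for 8 of the 9 genes, in 10 windows. The 150 bases before the start are printed 5′ to 3′ along the gene, with motifs in capitals. For Ddc, which has 2 starts in RefSeq, the upstream one is given. The window of its other start held none of the motifs searched for below. Which start was used in these tissues was not tested.
Th, chr7:142899996-142900145, minus strand: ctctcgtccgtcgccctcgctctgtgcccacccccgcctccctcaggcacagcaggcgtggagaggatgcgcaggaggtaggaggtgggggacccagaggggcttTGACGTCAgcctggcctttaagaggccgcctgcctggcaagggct
Slc6a3, chr13:73536597-73536746, plus strand: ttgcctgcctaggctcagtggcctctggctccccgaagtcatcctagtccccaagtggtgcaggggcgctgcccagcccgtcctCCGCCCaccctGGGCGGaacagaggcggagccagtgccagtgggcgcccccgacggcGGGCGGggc
Gch1, chr14:47189414-47189563, minus strand: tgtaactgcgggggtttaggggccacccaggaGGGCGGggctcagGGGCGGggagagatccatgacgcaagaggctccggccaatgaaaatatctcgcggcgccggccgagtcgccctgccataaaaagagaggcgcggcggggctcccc
Ddc, chr11:11898145-11898294, minus strand: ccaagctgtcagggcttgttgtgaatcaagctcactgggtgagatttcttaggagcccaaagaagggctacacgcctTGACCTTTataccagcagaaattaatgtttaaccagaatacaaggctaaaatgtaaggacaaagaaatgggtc

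These letters were searched on both strands, and no matches of different motifs overlapped. The cAMP response element, TGACGTCA, which CREB proteins bind, lies in the Th window from 45 bases before the start. It is found in 1.79% of 32851 RefSeq windows of the same length, and in 2 of the 10 member windows, the other being that of Slc18a2, 4 bases before the start. The NGFI-B response element, AAAGGTCA, to which receptors of the Nr4a family bind, is in the Ddc window in reverse, from 73 bases before the start, and in 1.51% of all windows. The GC box, GGGCGG, is found 3 times in the Slc6a3 stretch (66, 55 and 9 bases before the start) and 2 times in that of Gch1 (118 and 105 bases before). It is in 6 of the 10 member windows and in 35.7% of all windows. Matches describe the letters only, and binding was not measured.

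When the old arrays were divided by age, the rise of Th and Slc6a3 was larger at 20 to 22 months, and less of it was left at 26 and 28 months. At 20 to 22 months, 7, 7 and 5 of the 13 probe sets were called higher than at 6 months in WT, PrPmtA and PrPmtB (9.55%, 9.23% and 8.42% of all probe sets). At 26 and 28 months, 5 were called higher in WT and 5 in PrPmtA (11.8% and 9.9% of all). From 6 months to 20 to 22 months, Slc6a3 rose by 1.82 (SE 0.19, adjusted p = 6.26e-08) in WT, 1.4 (SE 0.22) in PrPmtA and 1.45 (SE 0.20) in PrPmtB. To 26 and 28 months the difference was 0.47 (SE 0.22, adjusted p = 0.13) in WT and 0.53 (SE 0.22, adjusted p = 0.11) in PrPmtA, both called by nestedF. Th stood 2.18 (SE 0.50) and 1.85 (SE 0.58) above young at 20 to 22 months in WT and PrPmtA, and 1.03 (SE 0.58, adjusted p = 0.211, not called) and 1.32 (SE 0.58, adjusted p = 0.139, called) at 26 and 28 months. In a fit without the 20 to 22 month arrays, the WT value was called too.

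The 2 kinds of old arrays were also compared directly. In PrPmtA, all 21-month arrays belong to the second series and the 26 and 28 month arrays to the third, so age and series coincide there, and in WT only the 20-month array breaks this. Between 20 to 22 and 26 to 28 months, 3 of 13 probe sets were called lower in WT and 2 in PrPmtA (8.16% and 4.44% of all probe sets). Those in WT were Slc6a3, lower by 1.35 (SE 0.19, adjusted p = 1.25e-05), Th, lower by 1.15 (SE 0.50, adjusted p = 0.134), and Ddc, lower by 0.78 (SE 0.24, adjusted p = 0.0248). Those in PrPmtA were Slc6a3, lower by 0.87 (SE 0.22, adjusted p = 0.0197), and Maob, lower by 0.50 (SE 0.15, adjusted p = 0.064). Ddc at 26 and 28 months stood at -0.01 (SE 0.28) and 0.10 (SE 0.28) against young in WT and PrPmtA.

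Maoa, the other Qdpr probe set and, in WT, Gch1 were still called above young in the oldest arrays. Maoa was 0.62 (SE 0.16) above young in both WT and PrPmtA at 26 and 28 months, beside 0.59 (SE 0.14) and 0.75 (SE 0.16) at 20 to 22. The other Qdpr probe set was 0.67 (SE 0.18) and 0.92 (SE 0.18) above young at 26 and 28 months. Gch1 was 1.23 (SE 0.26) above young in WT there and 0.10 (SE 0.26) in PrPmtA, and its other probe set 1.78 (SE 0.47) and 2.25 (SE 0.47). Astrocyte markers (8 genes) had mean signals of 11.23 to 11.46 on young arrays, 11.46 to 11.71 at 20 to 22 and 11.71 to 11.93 at 26 and 28 months. Their part in the rise of Maoa, Maob and Qdpr was not tested.

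**Figure D4:**
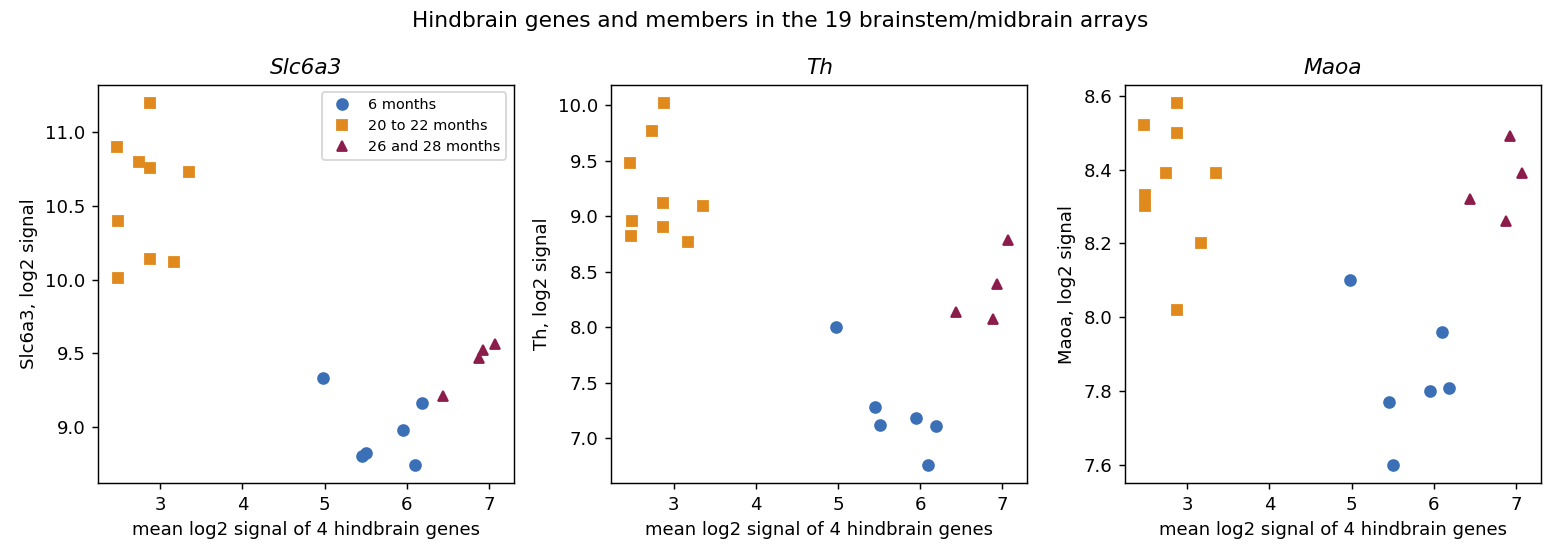
Log2 signal of Slc6a3, Th and Maoa (vertical axes) against the mean log2 signal of 4 hindbrain genes (horizontal axis) on the 19 brainstem/midbrain arrays, 1 point per array. The 20 to 22 month arrays lay apart at 2.47 to 3.35 on the horizontal axis and held the highest Slc6a3 signals, while the 26 and 28 month arrays had hindbrain signals at or above those of the young arrays.

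The old arrays also differed among themselves in these genes. Since they fall into 2 clusters by age, correlations with Slc6a3 were taken within the 9 arrays of 20 to 22 months only, for the 8 other genes (exact permutation tests, two-sided, adjusted over the 8). Th followed Slc6a3 most closely, with Pearson's r = 0.88 (exact p = 0.000926, adjusted 0.00741) and Spearman's rho = 0.97 (exact p = 0.000165, adjusted 0.00132). Ddc had r = 0.86 (exact p = 0.00422, adjusted 0.0112) and rho = 0.75 (exact p = 0.0255, adjusted 0.0622). Aldh1a1 had r = 0.87 (exact p = 0.00398, adjusted 0.0112) and rho = 0.80 (exact p = 0.0138, adjusted 0.0553), and Maoa r = 0.77 (exact p = 0.0125, adjusted 0.0251) and rho = 0.73 (exact p = 0.0311, adjusted 0.0622). For Gch1, Slc18a2, Maob and Qdpr, r was 0.60, 0.48, 0.48 and 0.25, with adjusted exact p-values of 0.143, 0.224, 0.224 and 0.517. Without the 2 arrays farthest from the median Slc6a3 signal, r was 0.84 for Th, 0.81 for Ddc, 0.82 for Aldh1a1 and 0.85 for Maoa. Within the 7 arrays of the second series it was 0.84, 0.89, 0.79 and 0.70. For Gch1, Slc18a2, Maob and Qdpr it was 0.87, 0.84, 0.25 and 0.49 there, so Gch1 and Slc18a2 followed Slc6a3 about as closely as Th within that series. The 2 arrays of the third series at that age were too few for a value.

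The genes whose pattern was most like that of Slc6a3 over the 19 brainstem/midbrain arrays were looked up among 11546 genes by Pearson's r. Th (0.946) came first and Ddc (0.924) was among the first 8. The others of these 8 were Cartpt (0.935), Atxn7l3b (0.931), Chrna6 (0.925), Gpr107 (0.922), Rangap1 (0.916) and Zmat2 (0.910). Chrna6 encodes a nicotinic receptor subunit of dopamine neurons and Cartpt a neuropeptide precursor. For Th, Slc6a3 (0.946) stood behind Ppp3r1 (0.948) and Ap3m2 (0.946) and before Cartpt (0.944), Pam (0.942), Cspg5 (0.936), Tollip (0.932) and Syt4 (0.926). Over the 13 old arrays, Ddc (0.926) and Th (0.922) followed Cpsf6 (0.941) in the order for Slc6a3, and Adcyap1, a neuropeptide gene, was among the first 8 for both Slc6a3 (0.912) and Th (0.933). These values describe the arrays, which share the age and series differences given above.

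The 2 transgenic lines did not differ from WT in these genes by more than the arrays allowed to be called. In old brainstem/midbrain, limma called 0 of 13 probe sets for PrPmtA and 0 for PrPmtB, where 0.0289% and 0.0444% of all probe sets were called. At an unadjusted p below 0.05 there were 2 and 3, beside 4.35% and 6.31% of all probe sets. In young brainstem/midbrain, 0 of 13 were called in either line (0.286% and 0.198% of all probe sets), with 2 and 0 at an unadjusted p below 0.05 (21% and 13.1% of all). The separate method of decideTests called 0 as well.

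Some differences were nevertheless bounded only loosely. In old brainstem/midbrain, Slc6a3 was -0.31 (95% confidence interval -0.78 to 0.16) in PrPmtA and 0.22 (-0.29 to 0.73) in PrPmtB relative to WT. For Th the values were -0.33 (-1.11 to 0.46) and 0.08 (-0.78 to 0.94). Slc18a2 was lower in both lines, at -0.48 (-0.83 to -0.13, adjusted p = 0.87) and -0.40 (-0.79 to -0.02, adjusted p = 0.786), and the brightest Gch1 probe set was at -0.68 (-1.02 to -0.35, adjusted p = 0.297) and -0.45 (-0.82 to -0.08, adjusted p = 0.709). Neither gene passed the test. The arrays lowest in serotonin markers, described above, were 1 of PrPmtA and 1 of PrPmtB, and the next lowest was a WT array. The 28-month PrPmtA array, also low in Slc18a2 (8.93), read 7.22 for Slc6a4. The part of serotonin cells in these differences was not tested. Ages also differ between the groups: PrPmtB has no array of 26 or 28 months.

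Within the second series alone (21 and 22 months, 3 WT against 2 arrays of each line), Gch1 was lower in PrPmtA by 1.09 (SE 0.20, adjusted p = 0.00517) and called, and in PrPmtB by 0.84 (SE 0.20, adjusted p = 0.122). Over all probe sets, that fit called 1018 for PrPmtA and 191 for PrPmtB, beside 13 and 20 in the main fit. The added call was thus not particular to Gch1. Within the third series the Gch1 values were -0.28 (SE 0.21) and 0.13 (SE 0.26), the latter from 1 PrPmtB array. Over the main fit and its alternatives, other than leaving out single arrays, the adjusted p of the PrPmtA difference in Gch1 ran from 0.00517 to 1. With a term for the third series in the fit, it was -0.68 (SE 0.17) and not called. Slc6a3 gave -0.52 (SE 0.18) in PrPmtA and -0.26 (SE 0.18) in PrPmtB within the second series, and -0.10 (SE 0.18) and 0.53 (SE 0.22) within the third, so that the sign in PrPmtB differed between series.

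**Figure D5:**
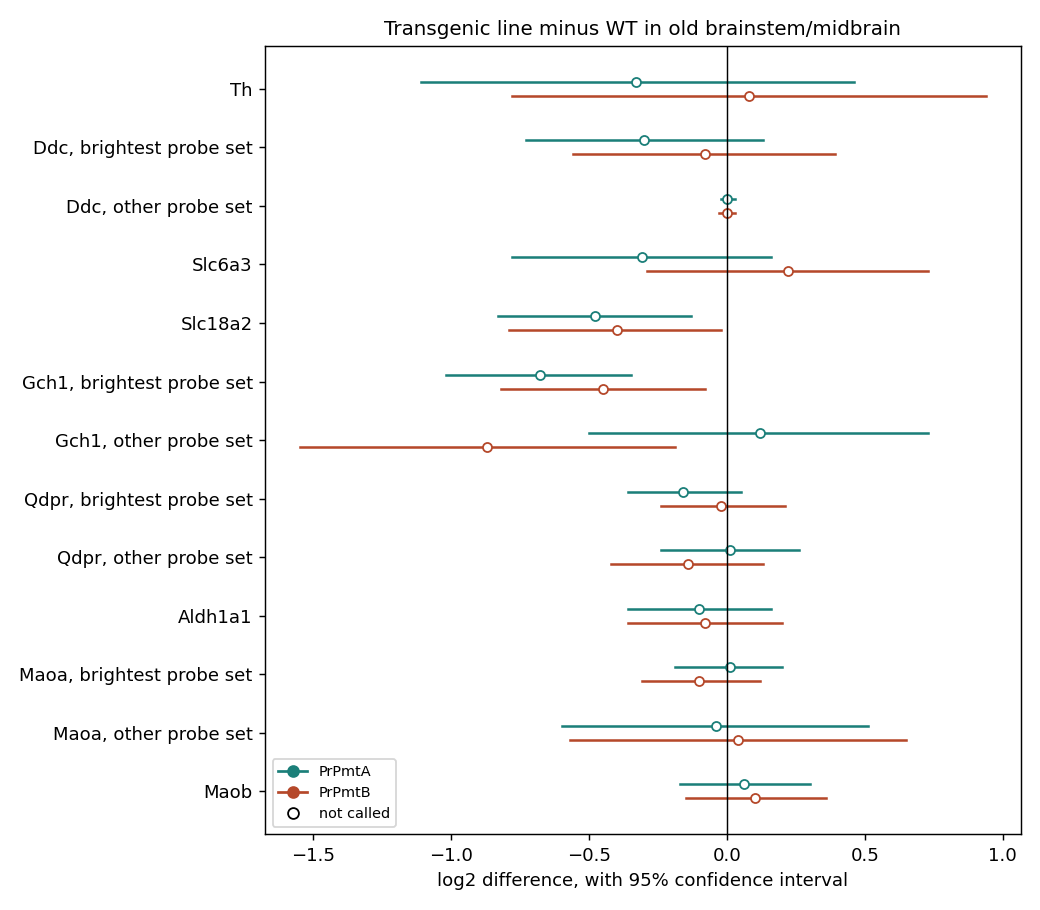
Log2 difference of PrPmtA and PrPmtB from WT in old brainstem/midbrain (horizontal axis) with its 95% confidence interval for the 13 probe sets; open points were not called. All points are open, and those of Slc18a2 and of the brightest Gch1 probe set lie below 0 in both lines.

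The question whether the lines age differently from WT was put to the same fit. No difference of the age change was called for any of the 13 probe sets in PrPmtA or PrPmtB brainstem/midbrain (1.01% and 0.313% of all probe sets were called), with 1 and 0 at an unadjusted p below 0.05 (18.7% and 5.54% of all). That 1 was the brightest Gch1 probe set in PrPmtA, whose age change was 1.51 lower than in WT (-1.51, SE 0.31, 95% confidence interval -2.13 to -0.89, adjusted p = 0.0126). It was not called by nestedF but was called by the separate method. The young PrPmtA arrays (5.46 and 5.32) against young WT (4.51 and 4.62) make up 0.83 (SE 0.26, adjusted p = 0.154) of it, and the old arrays the rest. The other Gch1 probe set gave 0.26 (SE 0.56) in the opposite direction. For Th and Slc6a3 the differences of the age change were -0.21 (-1.66 to 1.24) and -0.41 (-1.27 to 0.45) in PrPmtA and -0.07 (-1.56 to 1.42) and 0.08 (-0.81 to 0.96) in PrPmtB.

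In striatum, the target of the dopamine axons, Aldh1a1 and the other Qdpr probe set rose with age in all 3 lines and Maob in none. Of 13 probe sets, 3, 2 and 3 were called higher in WT, PrPmtA and PrPmtB (9.07%, 7.07% and 8.95% of all probe sets) and 1 lower in each (33.6%, 25.6% and 29.9% of all). Aldh1a1 rose by 0.59 (SE 0.17, adjusted p = 0.00445), 1.23 (SE 0.20, adjusted p = 0.000178) and 0.92 (SE 0.20, adjusted p = 0.00113). Its young arrays read 6.74 to 7.64 and its old arrays 7.76 to 8.20, without overlap. Maoa rose in WT (0.44, SE 0.13) and PrPmtB (0.45, SE 0.15) and was at 0.21 (SE 0.15, not called) in PrPmtA, and the other Qdpr probe set differed by 0.45, 0.58 and 0.63. Maob was at 0.20, 0.19 and 0.28 and not called. The dim Ddc probe set was called lower in each. Th, at 0.26 (SE 0.52), 0.32 (SE 0.60) and 0.85 (SE 0.60), was not called. Between each line and WT, limma called 0 of 13 probe sets in the old striatum (0.0888% and 0.155% of all probe sets), with 1 for PrPmtA and 0 for PrPmtB at an unadjusted p below 0.05 (4.14% and 9.04% of all).

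In cerebellum, 4, 3 and 3 of 13 probe sets were called higher with age (10.8%, 9.7% and 6.98% of all probe sets) and 2 lower in each line (35.6%, 27.8% and 20.8% of all). Th rose there too, by 1.87 (SE 0.49, adjusted p = 0.0019) in WT and 1.70 (SE 0.50, adjusted p = 0.0193) in PrPmtA, and was at 0.65 (SE 0.52, not called) in PrPmtB. Its young arrays read 4.23 to 5.03, and its old ones 4.72 to 8.15, so the 2 ages overlapped. Slc18a2, dim at 3.29 to 4.99, was called lower in the 3 lines, by 0.45, 1.28 and 0.67. Maob rose by 0.39 (SE 0.15), 0.38 (SE 0.15) and 0.38 (SE 0.16), and the other Qdpr probe set by 0.33 to 0.45.

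Averaged over the lines, the age change of Slc6a3, Slc18a2 and Gch1 was larger in brainstem/midbrain than in both other regions, and that of Ddc was not called. In a comparison added after the data were seen, 4 of 13 probe sets had an age change called higher than that of striatum and 7 than that of cerebellum (25.4% and 19.2% of all probe sets), the first a share near that of all probe sets. Slc6a3 rose by 1.3 (SE 0.27, adjusted p = 0.000324) more than in striatum and by 1.33 (SE 0.25, adjusted p = 0.000344) more than in cerebellum. For Gch1 the age change was higher by 0.77 (SE 0.19) and 0.77 (SE 0.18). This average did not hold in PrPmtA, where the same probe set changed by -0.10 in brainstem/midbrain, -0.02 in striatum and -0.10 in cerebellum. Slc6a3 and Gch1 both lay below the median of every array in striatum and cerebellum, so a fall with age could hardly show there. For Slc18a2 the age change was higher by 0.77 (SE 0.20) and 1.25 (SE 0.19). This includes its own change in those regions, where it was dim. In WT, PrPmtA and PrPmtB it was -0.23, -0.42 and -0.30 in striatum (not called) and -0.45, -1.28 and -0.67 in cerebellum. For Th the difference was 1.23 (SE 0.45, adjusted p = 0.029, not called by nestedF) against striatum and 0.30 (SE 0.42, adjusted p = 0.603) against cerebellum. For Ddc it was -0.02 (SE 0.25) and 0.31 (SE 0.23). Aldh1a1 rose by 0.53 (SE 0.15) less in brainstem/midbrain than in striatum. The hindbrain genes were at 2.35 to 2.99 in striatum and 3.07 to 3.47 in cerebellum, and moved with age in brainstem/midbrain.

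Other genes of dopamine chemistry moved in part with the members in brainstem/midbrain. Of 17 such genes found on the array, 6, 4 and 4 were called higher with age in WT, PrPmtA and PrPmtB, beside 10.6%, 10.2% and 8.25% of all probe sets. In the brighter part of the array, 20.7%, 18.7% and 15.5% of probe sets were called higher. Of the same 17 genes, 2, 1 and 1 were called lower, where 31.2%, 10.1% and 8.55% of all probe sets were called lower. Their median difference was 0.13, 0.31 and 0.26. Called higher in all 3 lines were 2 more genes of the cofactor's path, sepiapterin reductase Spr (0.96, 2.03 and 0.74) and pterin-4a-carbinolamine dehydratase Pcbd1 (1.58, 0.85 and 0.86). So were the aldehyde dehydrogenase Aldh2 (0.38, 0.57 and 0.29) and the sulfotransferase Sult1a1 (1.08, 0.91 and 1.47). Spr was 1.27 (SE 0.37) and 1.95 (SE 0.37) above young in the 26 and 28 month arrays of WT and PrPmtA, and 0.80 (SE 0.32) and 2.11 (SE 0.37) above at 20 to 22 months. Its young PrPmtA arrays read 4.27 and 6.15, and the other young arrays 5.71 to 6.60, so the PrPmtA values lean on the low array. The dopamine receptor Drd2 was called higher in WT alone (1.76, SE 0.35), beside 0.63 (SE 0.38) in PrPmtA and 0.87 (SE 0.40) in PrPmtB. The young WT arrays read 3.94 and 5.73, and those of the lines 5.74 to 6.22, so the WT rise leans on the array at 3.94. The lines were not compared with WT beyond the test of the age change, which called no gene of this list. The noradrenaline transporter Slc6a2 fell in PrPmtA by 1.85 (SE 0.53) and in PrPmtB by 3.87 (SE 0.55) and was at -1.16 (SE 0.50, not called) in WT. Young Slc6a2 signals were 3.71 and 3.80 in WT and 4.86 to 6.18 in the lines, so the larger falls start from higher values. Slc6a2 read 2.00 to 4.23 at 20 to 22 months, with WT arrays as low as 2.01, and 2.22 to 5.79 at 26 and 28 months. Dbh, which turns dopamine into noradrenaline, was at -0.45, -0.42 and -0.23 and not called. The noradrenaline markers (3 genes) had a mean signal of 4.11 to 4.92 on young arrays and 3.29 to 4.22 at 20 to 22 months, and of 3.55 to 4.88 at 26 and 28 months. Their part in the Th values was not tested.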

How the data were processed

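RNA of 54 tissue samples was hybridized to Affymetrix mouse genome arrays. The deposited values are log2 signals that the authors summarised per probe set; the methods name RMA and the labels GCRMA, which was not settled here. No scanner files were used, so signal over background could not be recomputed. Of 45101 probe sets, 64 controls were left out. Genes were named where the platform annotation gave a probe set 1 symbol (34958 probe sets; 932 had several and 9211 none).

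Groups came from the labels, and replicate numbers only from accession order. Differences were fitted with limma 3.58.1 in R 4.3.3; the script was tested on simulated data. Ranges, exact permutation tests and motif counts were made with Python 3.11.15 and scipy 1.17.1. No 2 arrays were identical (highest r 0.9975). All members and their probe sets are named, each gene standing with its brightest probe set in brainstem/midbrain, and other pathway genes as a list. Members and lists were chosen with earlier results of these data known. Of the list of 22 other pathway genes, the 17 reported were matched, and the rest are not analysed here. The planned correlation over all old arrays was not given, because the arrays form 2 clusters by age.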

Additional observations from a re-analysis of the deposited data

Results flagged for a closer look

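Within groups of 4 to 6 arrays, 1 array stood far from the others in 5 of 78 pairings of a probe set and a group, where chance gives about 1 in 20. The pairings share arrays and are not independent. The other Gch1 probe set was 2.80 on the first old PrPmtA brainstem/midbrain array (21 months), against 4.53 to 4.88 on the others of its group. This is also the array with the lowest serotonin markers. In old cerebellum, that probe set was 2.32 on the second PrPmtA array (others 2.12 to 2.17) and 2.02 on the first PrPmtB array (others 2.24 to 2.26). On the 20-month WT cerebellum array, Aldh1a1 was 11.20 (others 10.87 to 10.98) and Maoa 8.29 (others 8.01 to 8.07).

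Age changes differed between regions by limma's test of the difference, averaged over lines. Relative to striatum, the brainstem/midbrain change was higher by 1.3 for Slc6a3, 1.23 for Th, 0.77 for Slc18a2, 0.77 and 1.37 for the brightest and the other Gch1 probe set, and 0.04 for the dim Ddc probe set, and it was -0.53 for Aldh1a1. Those of Th and of Ddc passed by adjusted p and were not called by nestedF. Relative to cerebellum, it was higher by 1.33 for Slc6a3, 1.25 for Slc18a2, 0.77 and 1.31 for the Gch1 probe sets, 0.44 for Maoa, 0.23 for Aldh1a1 and 0.21 for the brightest Qdpr probe set. The last pair was called by nestedF with adjusted p-values of 0.194 and 0.135. The age change of the brightest Gch1 probe set in PrPmtA brainstem/midbrain differed from that in WT by -1.51.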

How the results depend on the processing

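Counts of member probe sets called with age in brainstem/midbrain were 10, 7 and 7 in WT, PrPmtA and PrPmtB. Over all probe sets they were 18841, 9163 and 7567. There, a separate fit per region called 5994, 5286 and 4209, and the separate method of decideTests 3571 in PrPmtB. Old arrays of 26 and 28 months alone gave 10771 in WT. The counts of members below were as follows. A separate fit per region gave 5, 3 and 2, the separate method of decideTests gave 3 in PrPmtB, old arrays of 26 and 28 months alone gave 6 in WT, and the third series alone gave 4 in PrPmtB. Leaving out 1 array gave 7 to 10, 5 to 8 and 1 to 7. The PrPmtB count was 1 without the first young array and 2 without the second old array. For the lines against WT in brainstem/midbrain, 0 became 1 in the second series alone (Gch1 in PrPmtA) and stayed 0 (0 to 0) without single arrays, also in old striatum. In the second series alone, the calls over all probe sets for old PrPmtA against WT rose from 13 to 1018. For the difference in age change from WT, 0 became 1 with the separate method, quantile normalization, sex as a covariate, the second series alone or old arrays of 20 to 22 months alone. It was 0 to 1 without single arrays, and 1 without either young PrPmtB array, the first old PrPmtB, the fifth old WT or the fourth old PrPmtA array. The Gch1 difference itself ran from -1.91 to -1.11 over 12 alternatives (adjusted p = 0.00346 to 0.389). With age, 11 calls in striatum became 7 with a fit per region (10 to 12 without single arrays), and 16 in cerebellum became 5 with the separate method and 8 after quantile normalization (12 to 16). Regional differences kept 13 calls against striatum (13 to 13) and 10 against cerebellum (9 to 11). For the regional difference in age change, 7 calls against cerebellum became 4 in the third series alone (5 to 8), and the 5 against striatum ran from 5 to 6. Maoa in PrPmtB reversed to -0.003 in the third series alone. The cause of these changes was not tested. Of 1238 values of single probe sets under alternatives, 1119 kept the call and either kept the sign or moved by less than the standard error of the main fit.

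With arrays that share a code as a random replicate block (correlation 0.136 over 21 codes), the age calls in brainstem/midbrain were 10, 7 and 5. This replicate block also pairs the regions by code, and gave 13 and 10 calls for the regional differences against striatum and cerebellum and 6 and 7 for those in age change. Replicate numbers come from accession order and pair nothing. The 28-month PrPmtA arrays labelled female carried Y-linked signal (mean log2 signal 4.79 to 5.63, against 2.61 to 2.65 on the WT arrays of that age). The alternative with sex as a covariate used the label. Precision was limited by the number of arrays, 2 in each young group.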
